A study of Mus musculus with 4 samples.

Results

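The transcripts of de novo lipogenesis, the synthesis of fatty acids from carbohydrate carbon, were examined in the livers of mice with diet-induced steatohepatitis. The 10 genes were taken by symbol from the deposited expression table and are 10 of its 24138 rows, each present once. They comprised Srebf1 and Mlxipl (transcription factors), Acly and Acss2 (acetyl-CoA supply), Me1 (NADPH supply), Acaca and Acacb (malonyl-CoA synthesis), Fasn (fatty acid synthase), Elovl6 (chain elongation) and Thrsp (a lipogenic regulator). All 4 livers came from male C57BL/6J mice aged 18 weeks that had received the FAT-MASH diet, used as a model of metabolic dysfunction-associated steatohepatitis, and resolvin D1 (RvD1), a docosahexaenoic acid-derived mediator of the resolution of inflammation. No livers without RvD1 or on another diet were analysed here, so the values describe 1 treated group and its spread between livers, and no contrast could be tested. The labels number the livers 1 to 4 and say nothing more about the animals.

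In de novo lipogenesis, citrate exported from mitochondria is cleaved to acetyl-CoA, which is carboxylated to malonyl-CoA and condensed to palmitate with electrons from NADPH. In hepatocytes the pathway is driven by insulin through the SREBP-1c product of Srebf1 and by glucose through ChREBP, the product of Mlxipl. It is a known contributor to liver fat in steatotic liver disease.

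Levels are given in FPKM, fragments scaled by the length of the transcript and by the number of mapped fragments, a unit that allows levels of different genes to be set side by side. The libraries held an estimated 18.8 to 20.1 M fragments (M, mega). All 10 genes exceeded a mean of 1 FPKM, the level at which 10541 genes were called expressed. The least covered value, that of Mlxipl in liver 4, rested on about 2492 fragments, for which counting error alone is about 2.00%. Counting error was therefore small beside the range over the livers of each of the 10 genes. Coordinates are those of the table on mm10, the build named in the submitters' notes. Among hepatocyte markers 7 of 8 were expressed, while Alb was at 0 in every library. An exact 0 for a gene that hepatocytes transcribe strongly can be a failed estimate, and 0 values were not read as absence. In bulk tissue, fewer cells of a type and less RNA per cell cannot be told apart.

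**Figure D1:**
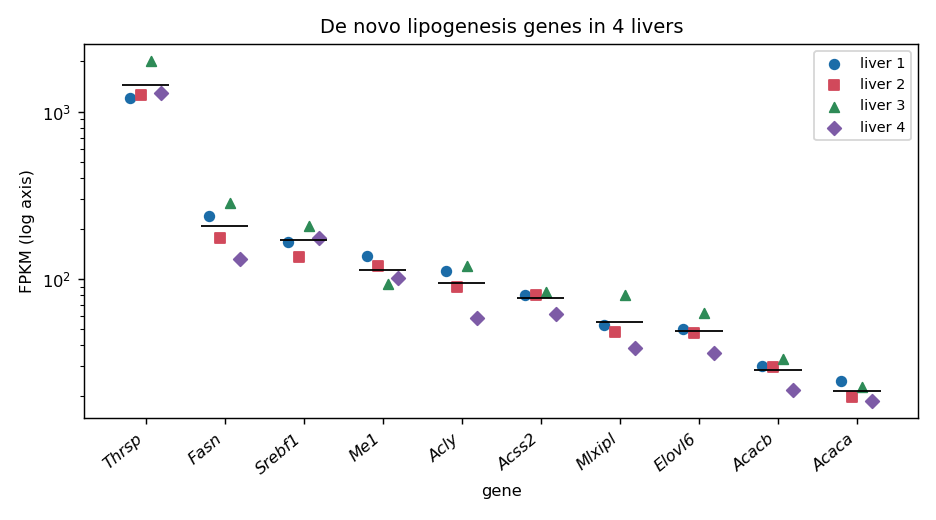
FPKM of the 10 genes (log axis) in livers 1 to 4, ordered by mean. Points are livers and the black bars are means over the 4 livers. Thrsp lies 6.95-fold above the next gene, and the point of liver 3 is the highest for 8 of the 10 genes.

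Of the transcription factors, Srebf1 had the higher level. Srebf1 was 166, 135, 207 and 175 FPKM in livers 1 to 4, with a mean of 171 ± 29.6 FPKM (SD, n = 4). Liver 3 was highest and liver 2 lowest, a 1.53-fold range. The row for Srebf1 (XLOC_003618, chromosome 11, 60105013 to 60220604) shares its span with Rai1 and with 2 microRNA genes, and it does not separate the SREBP-1a and SREBP-1c transcripts. How fragments in that span were divided is not given in the sources used here, so the level of Srebf1 and each ratio and pattern drawn from it carry that uncertainty. The row for Rai1 was 1.47, 1.35, 2.15 and 1.25 FPKM in livers 1 to 4, and both microRNA rows were at 0. Mlxipl (XLOC_016198, chromosome 5, 135106891 to 135138382) was 53.0, 48.2, 79.9 and 38.7 FPKM, with a mean of 54.95 ± 17.7 FPKM (SD, n = 4). Liver 3 stood 1.51-fold above the next liver and liver 4 was lowest, a 2.06-fold range. The level of Srebf1 relative to Mlxipl was 3.12, 2.80, 2.59 and 4.53 in livers 1 to 4, so liver 4 combined an average level of Srebf1 with the lowest level of Mlxipl.

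Acly cleaves cytosolic citrate to acetyl-CoA, and Acss2 makes acetyl-CoA from acetate. Acly (XLOC_004035, chromosome 11, 100476352 to 100528000) was 111, 89.9, 119 and 58.4 FPKM in livers 1 to 4, with a mean of 94.7 ± 27.1 FPKM (SD, n = 4). Liver 4 was lowest, 1.54-fold below the next lowest liver, while livers 1 and 3 differed by 1.07-fold. Acss2 (XLOC_011880, chromosome 2, 155518043 to 155562743) was 79.9, 80.6, 84.0 and 61.3 FPKM, with a mean of 76.5 ± 10.2 FPKM (SD, n = 4). Its values in livers 1 to 3 lay close together and liver 4 was again lowest, 1.30-fold below the next. Relative to Acss2, Acly was at 1.39, 1.12, 1.42 and 0.952 in livers 1 to 4, so that only in liver 4 was the acetate-using enzyme gene the higher of the pair.

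Me1 encodes the cytosolic malic enzyme, which forms NADPH from malate. Me1 (XLOC_022782, chromosome 9, 86581363 to 86701253) was 138, 119, 93.3 and 101 FPKM in livers 1 to 4, with a mean of 113 ± 19.7 FPKM (SD, n = 4). Its highest value was in liver 1, as for Acaca, and its lowest was in liver 3, which was the lowest liver for no other gene of the 10. The spans of Me1, Acss2 and Acly are each shared with 1 other row (A330041J22Rik, Acss2os and Mir7116), none above 0.117 FPKM in any liver. Relative to Fasn, Me1 was at 0.580, 0.677, 0.326 and 0.767 in livers 1 to 4, a 2.35-fold range. The paralogue Me2, a mitochondrial malic enzyme, had a mean of 1.32 ± 0.248 FPKM (SD, n = 4), and Me3 was at or below 0.0500 FPKM in each liver.

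Acetyl-CoA carboxylase is encoded by Acaca, whose product is cytosolic, and by Acacb, whose product lies at the mitochondrial surface and is known for restraining fatty acid import. Acaca (XLOC_003002, chromosome 11, 84195438 to 84401651) was 24.5, 19.5, 22.7 and 18.5 FPKM in livers 1 to 4, with a mean of 21.3 ± 2.78 FPKM (SD, n = 4). It was the least variable of the 10 genes, with a 1.32-fold range. Acacb (XLOC_016058, chromosome 5, 114165518 to 114250758) was 29.98, 29.9, 33.1 and 21.6 FPKM, with a mean of 28.7 ± 4.93 FPKM (SD, n = 4). Acacb exceeded Acaca in each of the 4 livers, by a ratio of 1.22, 1.53, 1.46 and 1.17 in livers 1 to 4.

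Fasn builds palmitate from malonyl-CoA and had the widest relative spread of the 10 genes. Fasn (XLOC_004258, chromosome 11, 120805958 to 120824547) was 237, 176, 286 and 132 FPKM in livers 1 to 4, with a mean of 208 ± 67.7 FPKM (SD, n = 4) and a 2.17-fold range. The 4 values were spaced without a gap that set 1 liver apart. Fasn relative to Acaca was 9.67, 9.02, 12.6 and 7.15 in livers 1 to 4, a 1.76-fold range, whereas Fasn relative to Acly was 2.13, 1.96, 2.41 and 2.26, a 1.23-fold range. Fasn and Acly had similar fold ranges, 2.17 and 2.04, and the same order of livers.

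Elovl6 lengthens palmitate to stearate. Elovl6 (XLOC_013541, chromosome 3, 129532386 to 129638493) was 49.9, 47.7, 62.7 and 36.1 FPKM in livers 1 to 4, with a mean of 49.1 ± 10.9 FPKM (SD, n = 4). Livers 1 and 2 were close, liver 3 was highest and liver 4 lowest. The related elongase Elovl5, which acts on polyunsaturated fatty acids, was 718, 640, 412 and 597 FPKM, with its lowest value in the liver where Elovl6 was highest.

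Thrsp, also called Spot 14, is a small protein that responds to thyroid hormone and carbohydrate and promotes lipogenesis. Thrsp (XLOC_020027, chromosome 7, 97412957 to 97417510) was 1215, 1267, 2012 and 1289 FPKM in livers 1 to 4, with a mean of 1446 ± 379 FPKM (SD, n = 4). Livers 1, 2 and 4 lay within a narrow band and liver 3 stood 1.56-fold above the highest of them. By mean level Thrsp ranked 50 among all rows. Its paralogue Mid1ip1, whose product binds acetyl-CoA carboxylase, was 42.1, 32.6, 61.97 and 54.1 FPKM, also highest in liver 3 but lowest in liver 2.

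The 10 genes together accounted for 0.401%, 0.386%, 0.581% and 0.339% of the FPKM total of livers 1 to 4. Alb and Scd1 stood at 0 in every library. If those are failed estimates, the totals are too low and the shares too high by an unknown amount. Thrsp made up 57.8% to 67.1% of the sum of the 10 genes. Without Thrsp the share of the FPKM total was 0.169%, 0.143%, 0.191% and 0.113%, and liver 3 remained highest and liver 4 lowest. In order of mean level the genes were Thrsp, Fasn, Srebf1, Me1, Acly, Acss2, Mlxipl, Elovl6, Acacb and Acaca. The ranges over the livers overlapped in 7 of the 9 pairs of neighbours in that order. They did not overlap between Thrsp and Fasn or between Elovl6 and Acacb. Fasn exceeded Srebf1, Me1 exceeded Acly and Acly exceeded Acss2 in 3 of 4 livers each, and the other 6 pairs kept their order in all 4 livers.

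The spread between livers was set against that of all expressed genes. A range of at least 1.5-fold between the highest and lowest liver was found for 7 of the 10 genes, against 28.4% of expressed genes. The values nearest that threshold were 1.53-fold for Srebf1 and Acacb inside it, and 1.47-fold for Me1 outside it. Fasn, Mlxipl and Acly had a range of at least 2-fold, which 6.54% of expressed genes reached. The between-liver SD on the log2(FPKM + 1) scale had a median of 0.29 for the 10 genes and 0.16 for expressed genes, and each of the 10 lay above the latter. An SD as large as that of Fasn (0.49) was reached by 1.71% of expressed genes, and one as large as that of Acaca (0.18) by 41.9%. Adding 1 to FPKM shrinks the SD most for genes of low level, whereas the 10 genes had means of 21.3 FPKM or more. With pseudocounts of 0.1 and 5 the median SD of the 10 genes was 0.297 and 0.270. No such values are given for expressed genes. The count with a 1.5-fold range was 7 without liver 1, 6 without liver 2, 2 without liver 3 and 4 without liver 4, against 22.9%, 19.3%, 16.3% and 19.6% of expressed genes in the same livers. In 1 of the 10 genes, Thrsp, a single liver lay beyond the 95% critical value of Dixon's ratio, which compares the largest gap at either end with the range, against 5.64% of expressed genes. The 10 genes were read in the same libraries and are not independent of each other, so these counts carry no p-value.

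**Figure D2:**
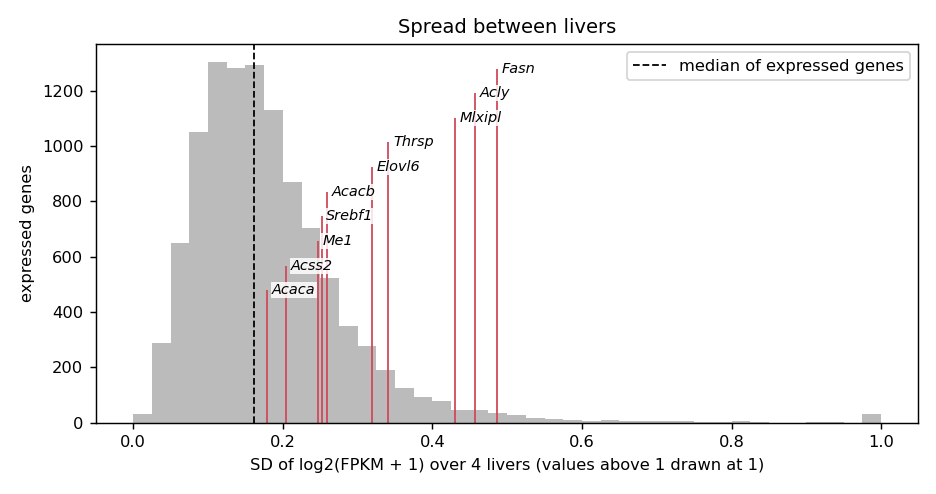
Histogram of the between-liver SD, on the log2(FPKM + 1) scale, for expressed genes, with SDs above 1 drawn at 1. Red lines mark the 10 lipogenesis genes (line heights only separate the names) and the dashed line is the median of expressed genes, 0.16. The lines run from 0.18 for Acaca to 0.49 for Fasn, all to the right of the median.

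Most of the 10 genes were high and low in the same livers. The highest value was in liver 3 for 8 genes, against 26.8% of expressed genes, in liver 1 for Acaca and Me1 (17.9%), and in livers 2 and 4 for 0 genes (22.0% and 33.3%). The lowest value was in liver 4 for 7 genes, against 18.1% of expressed genes, the exceptions being Thrsp (liver 1, as in 20.7%), Srebf1 (liver 2, 29.9%) and Me1 (liver 3, 31.4%). In 6 genes, namely Mlxipl, Acly, Acss2, Acacb, Fasn and Elovl6, both features were present, as in 7.29% of expressed genes. Liver 3 exceeded liver 4 in 9 of 10 genes, against 42.8% of expressed genes. As deviations of log2(FPKM + 1) from each gene's mean, the medians over the 10 genes were 0.08, -0.07, 0.33 and -0.34 in livers 1 to 4. The corresponding medians over expressed genes were -0.01, -0.02, -0.01 and 0.04. Without liver 3, the highest value was in liver 1 for 7 genes, against 28.1% of expressed genes, and without liver 4 the lowest was in liver 2 for 7 genes, against 36.9%. Without liver 4, the median deviation in liver 3 was 0.201.

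**Figure D3:**
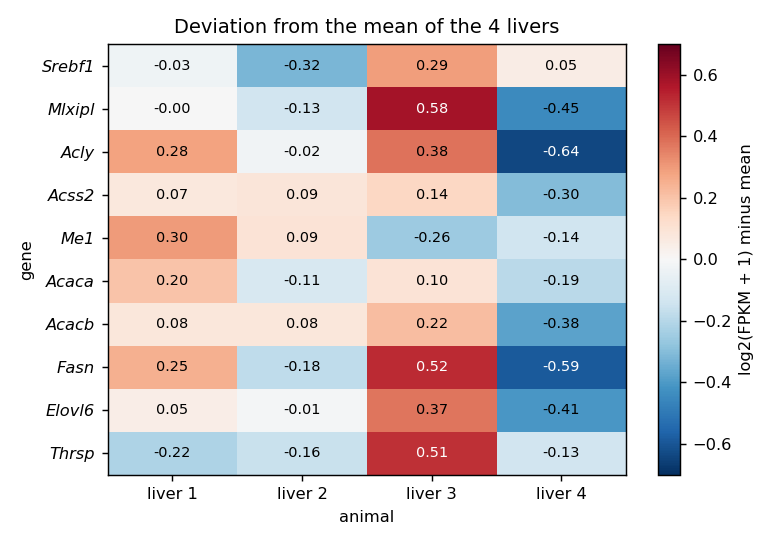
Deviation of log2(FPKM + 1) from the mean of the 4 livers, for each gene (rows) and liver (columns). Red is above and blue below the gene's mean. The column of liver 3 is red except for Me1, at -0.26, and the column of liver 4 is blue except for Srebf1, at 0.05.

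The likeness of patterns within the group was measured as the root mean square difference of these deviations over the 4 livers, on the log2 scale. The most alike of the 45 pairs was Acss2 with Acacb (0.05), followed by Acacb with Elovl6 (0.09) and Acly with Fasn (0.11). The least alike was Mlxipl with Me1 (0.48). Against the median of the other 9 genes, Elovl6 was closest (0.08), and Me1 (0.37) and Srebf1 (0.27) were farthest. Srebf1 was nearer to Thrsp (0.19) than to Fasn (0.37) or Acly (0.41).

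Because most of these genes varied together, the sequence upstream of their starts is shown for the 3 genes with the widest range (Fasn, Acly and Mlxipl), for Thrsp, the most abundant, and for Me1, which departed from the group. RefSeq windows on GRCm38.p6 matched all 10 genes, with 14 windows in all, and 250 bases before the annotated start are printed 5′ to 3′. Mlxipl and Me1 each have another window that is not printed. Capitals mark matches on either strand to any of 4 motifs, which were TCACNCCAC (a form of the sterol regulatory element bound by SREBPs), CACGTG (the E-box core), CCAAT (bound by NF-Y) and GGGCGG (the GC box bound by Sp1). Adjacent capitals can belong to overlapping matches.
Fasn (chr11:120824548-120824797, - strand): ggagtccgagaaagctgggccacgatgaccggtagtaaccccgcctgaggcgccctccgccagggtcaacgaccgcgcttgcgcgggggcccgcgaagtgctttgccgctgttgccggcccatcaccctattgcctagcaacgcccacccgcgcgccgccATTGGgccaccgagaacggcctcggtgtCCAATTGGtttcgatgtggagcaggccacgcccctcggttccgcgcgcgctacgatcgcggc
Acly (chr11:100528001-100528250, - strand): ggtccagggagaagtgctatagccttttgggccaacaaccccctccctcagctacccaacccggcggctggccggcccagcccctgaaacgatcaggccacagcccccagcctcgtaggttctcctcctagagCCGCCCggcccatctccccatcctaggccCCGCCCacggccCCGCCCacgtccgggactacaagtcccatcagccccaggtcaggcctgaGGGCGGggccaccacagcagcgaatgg
Mlxipl (chr5:135106641-135106890, + strand): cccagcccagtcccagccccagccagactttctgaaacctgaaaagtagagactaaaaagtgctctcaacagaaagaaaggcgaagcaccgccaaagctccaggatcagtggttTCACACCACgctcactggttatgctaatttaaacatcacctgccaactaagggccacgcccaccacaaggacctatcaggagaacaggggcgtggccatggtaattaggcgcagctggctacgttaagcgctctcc
Thrsp (chr7:97417551-97417800, - strand): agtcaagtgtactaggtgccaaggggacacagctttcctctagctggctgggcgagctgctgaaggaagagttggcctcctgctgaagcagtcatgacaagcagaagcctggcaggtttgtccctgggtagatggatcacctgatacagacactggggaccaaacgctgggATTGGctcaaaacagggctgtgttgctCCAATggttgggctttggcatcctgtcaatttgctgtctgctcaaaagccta
Me1 (chr9:86695915-86696164, - strand): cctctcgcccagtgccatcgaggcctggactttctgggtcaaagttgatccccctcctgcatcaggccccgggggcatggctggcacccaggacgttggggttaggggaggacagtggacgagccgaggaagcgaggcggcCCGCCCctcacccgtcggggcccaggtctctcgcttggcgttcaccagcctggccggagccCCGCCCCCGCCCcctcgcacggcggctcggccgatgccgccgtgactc

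The CCAAT motif was found in 8 of the 14 windows, against 33.8% of 32851 windows of all genes. Those windows belong to 7 of the 10 genes, some of which have more than 1 window, and no share per gene was computed. For Me1 and Mlxipl the match lies in a window that is not printed, at positions -208 and -173. Fasn held it 3 times within 90 bases of the start and Thrsp held it at positions -79 and -52, where -1 is the last base before the start. The GC box was found in 6 windows of 5 genes, against 32.7% of all windows, and Acly, Acss2 and Srebf1 held 4 matches each, those of Srebf1 in more than 1 window. TCACNCCAC was in 1 window, the Mlxipl window shown, at position -136, against 1.05% of all windows. The CACGTG E-box was in 1 window, at a second start of Mlxipl that lies upstream, against 6.02%. These matches describe letters in short windows, and neither binding nor other parts of the promoters was measured.

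The surrounding pathway was described with 9 gene lists. The median deviations of the lists ran from -0.13 to 0.19 over all lists and livers, where those of the lipogenesis genes ran from -0.34 to 0.33. Among regulators of SREBP processing and the liver X receptors, 3 of 10 genes were highest in liver 3, against 26.8% of expressed genes, and 3 were lowest in liver 4, against 18.1%. After scaling by median ratios, 3 were highest in liver 3 and 4 were lowest in liver 4. The order of livers by the median deviation of these regulators depended on that scaling. As reported, livers 1, 3 and 4 lay within -0.001 to 0.013 with liver 4 highest, whereas scaled values of 0.010, -0.016, 0.013 and -0.036 in livers 1 to 4 gave the order of the lipogenesis genes, over a much narrower range. Scaling also moved the count lowest in liver 4 from 1 to 4 among the 10 genes of glucose and fructose input, and the count highest in liver 3 from 3 to 4 among the 8 expressed desaturases and elongases. Of the other list counts given here, it moved the kinase and insulin pathway genes highest in liver 4 from 4 to 3 and the glycerolipid genes with a 1.5-fold range from 3 to 4. Insig1, which retains SREBPs in the endoplasmic reticulum and is itself an SREBP target, was 184, 188, 121 and 97.4 FPKM in livers 1 to 4, low in liver 4 but not high in liver 3. Lpin1, a phosphatidate phosphatase and coregulator, was 33.5, 54.3, 44.7 and 16.4 FPKM, a 3.31-fold range with the lowest value in liver 4. Scap, which escorts SREBPs to the Golgi, had a mean of 26.01 ± 1.63 FPKM, and its partner protease gene Mbtps1 16.97 ± 1.02 FPKM (each SD, n = 4). The liver X receptor genes Nr1h3 and Nr1h2 had 52.1 ± 5.72 and 22.2 ± 2.33 FPKM (each SD, n = 4), both highest in liver 3. The paralogue Srebf2, which drives cholesterol synthesis, had a mean of 11.4 ± 1.12 FPKM (SD, n = 4), and Srebf1 exceeded it 12.6- to 16.4-fold within each liver. Mlx, the partner of ChREBP, was 19.2, 14.4, 19.5 and 16.1 FPKM. The ChREBP paralogue Mlxip had 1.21 ± 0.0486 FPKM (SD, n = 4), a small part of the level of Mlxipl. The mitochondrial acetyl-CoA synthetase gene Acss1 was at or below 0.329 FPKM, Acss3 had 6.61 ± 0.722 FPKM, and Elovl7 was at or below 0.690 FPKM. Of the remaining regulators, Rxra had 101 ± 10.98, Insig2 74.2 ± 10.4, Trib1 16.3 ± 0.852 and Mbtps2 2.26 ± 0.428 FPKM (each SD, n = 4).

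Genes of glucose and fructose entry had a median SD of 0.141 on the log2(FPKM + 1) scale, near the 0.162 of all expressed genes and below the 0.289 of the lipogenesis genes. Among these 10 genes, 1 reached a 1.5-fold range, against 28.4% of expressed genes. It was Tkfc, a fructose-metabolising kinase, at 292, 178, 336 and 201 FPKM in livers 1 to 4. Pklr, the liver pyruvate kinase and a ChREBP target, had a mean of 233 ± 15.5 FPKM (SD, n = 4) and was highest in liver 3, at 254 FPKM, and lowest in liver 4, at 220.1 FPKM. Khk, which phosphorylates fructose, had 461 ± 56.1 FPKM (SD, n = 4). The glucose transporter Slc2a2 had 153 ± 15.6, Txnip 49.8 ± 4.59, Pfkfb1 40.8 ± 2.15 and Pfkl 13.3 ± 1.11 FPKM (each SD, n = 4).

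Further enzymes supply the pathway with carbon and electrons. Of 8 genes of citrate and acetyl-CoA supply other than Acly and Acss2, 6 were highest in liver 4 and 0 in liver 3, against 33.3% and 26.8% of expressed genes. The citrate carrier Slc25a1 was 198, 199.8, 181 and 216 FPKM in livers 1 to 4, lowest in the liver with the most Acly. Mdh1 and Mpc2, of malate and pyruvate handling, had 256 ± 32.3 and 159 ± 19.3 FPKM (each SD, n = 4). Of 7 further genes of NADPH supply, 0 had a 1.5-fold range, against 28.4% of expressed genes. Idh1, the cytosolic isocitrate dehydrogenase, had a mean of 237 ± 15.9 FPKM, Taldo1 of the pentose phosphate pathway 113 ± 5.85 FPKM and H6pd, a hexose phosphate dehydrogenase of the endoplasmic reticulum, 105 ± 9.10 FPKM (each SD, n = 4).

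Downstream of palmitate, the 8 expressed desaturase and elongase genes included 3 that were highest in liver 3 and 1 that was lowest in liver 4, against 26.8% and 18.1% of expressed genes. Fads2, a desaturase of polyunsaturated fatty acids, was 1301, 1227, 1709 and 1536 FPKM in livers 1 to 4. The desaturase Fads1 had 308 ± 21.9 FPKM and the elongase Elovl2 279 ± 37.5 FPKM (each SD, n = 4). Scd1, which desaturates stearate and is a standard companion of these genes, had 0 in every library, so it could not be read. Of 7 glycerolipid synthesis genes, 3 had a range of at least 1.5-fold, against 28.4% of expressed genes. Agpat2 was highest in liver 3, at 298 FPKM, and lowest in liver 2, at 194 FPKM, whereas Dgat2, which makes triglyceride, was highest in liver 4, at 318 FPKM, and Agpat3 had 92.3 ± 6.65 FPKM (SD, n = 4).

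All 8 genes on the list of malonyl-CoA disposal and fatty acid oxidation were highest in liver 4, against 33.3% of expressed genes. The list is a selection and includes a nuclear receptor gene, Ppara, beside the enzymes. The count was likewise 8 after scaling by median ratios. The median deviation of the list in liver 4 was 0.19, where that of the lipogenesis genes was -0.34. Cpt1a, the malonyl-CoA-sensitive step of fatty acid import, was 209, 197, 226 and 264 FPKM in livers 1 to 4. Acadm, medium-chain acyl-CoA dehydrogenase, was 217, 198, 149.8 and 246 FPKM, lowest in liver 3 and highest in liver 4. The range was narrow for Mlycd, malonyl-CoA decarboxylase, at 59.3 ± 3.05 FPKM (SD, n = 4). Among the 10 expressed genes of the AMP-activated kinase and insulin pathways, 4 were highest in liver 4 and 2 in liver 3, against 33.3% and 26.8%. The most abundant were Stk11 (39.99 ± 5.88), Akt2 (35.2 ± 4.22) and Prkag1 (21.6 ± 1.499 FPKM, each SD, n = 4), and the span of Stk11 is shared with many other genes.

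**Figure D4:**
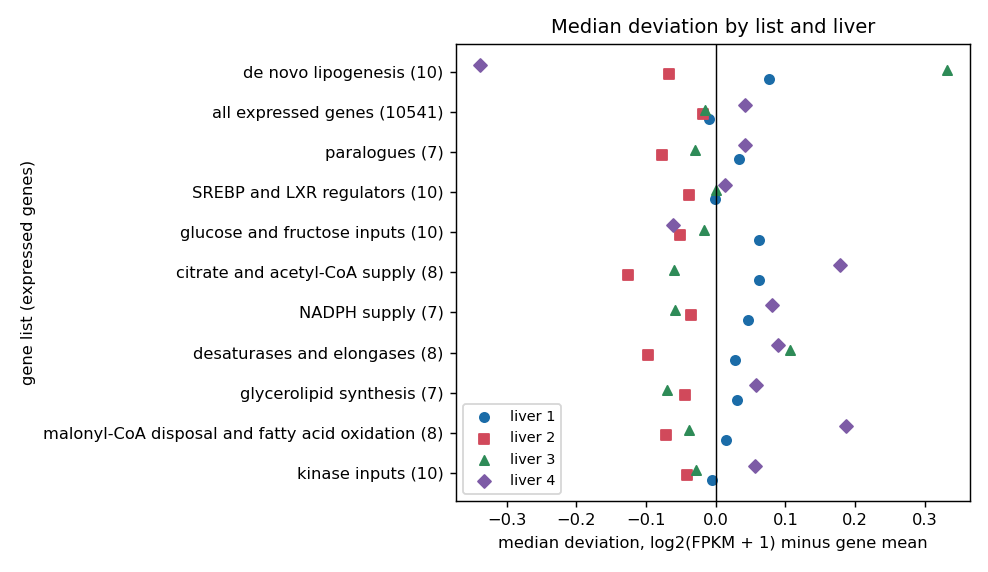
Median deviation of log2(FPKM + 1) from the gene mean in each liver, for the expressed genes of each list (number in brackets) and for all expressed genes. The lipogenesis genes lie at 0.33 in liver 3 and -0.34 in liver 4, and the list of malonyl-CoA disposal and fatty acid oxidation lies at 0.19 in liver 4.

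Markers of other cell types were set beside the pattern. Of the 7 adipocyte markers, a cell type that also expresses lipogenic genes, Plin1, Lep and Retn were at 0 in all libraries, Adipoq did not exceed 0.0528 FPKM, and 3 were expressed. Their summed level was 24.7, 47.1, 21.5 and 32.7 FPKM in livers 1 to 4. Fabp4, also expressed by macrophages and endothelial cells, made up 37.5 FPKM of the sum in liver 2. The liver with the lowest value differed between the 3, being liver 1 for Fabp4, liver 2 for Lipe and liver 3 for Cfd, and the span of Cfd is shared with 48 other rows. The summed level of 5 macrophage markers was 146, 190.1, 147 and 197 FPKM, that of 4 stellate cell markers 189, 248, 156 and 179 FPKM, and that of 4 endothelial markers 12.5, 21.1, 15.5 and 15.9 FPKM. The 4 cholangiocyte markers summed to 19.3, 21.9, 20.3 and 17.6 FPKM, and the 8 hepatocyte markers, with Alb at 0, to 26722, 24286, 25377 and 32967 FPKM. The hepatocyte sum is mostly Apoa1, Ttr and Cyp2e1, each highest in liver 4. Another 3 of the 7 expressed hepatocyte markers were highest in liver 3, against 26.8% of expressed genes. Of these, Cps1 was 541, 449.9, 748 and 617 FPKM, Ass1 2125, 1875, 2603 and 2293 FPKM, and Hnf4a 93.9, 104, 156 and 118 FPKM in livers 1 to 4. The remaining marker, Tat, was 780.2, 522, 505 and 335 FPKM, with its lowest value in liver 4. The stellate cell sum is mostly Dcn and was lowest in liver 3, whereas Lrat and Des were lowest in liver 4, at 3.26 and 2.22 FPKM. The median deviation of the stellate cell markers was also lowest in liver 4, at -0.23. The part of cell composition in the pattern was not tested.

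The genes outside the list whose pattern was most like the median pattern of the 10 genes were ranked among 6528 genes whose mean reached 5 FPKM, by the root mean square difference over the 4 livers. The nearest were Bag3 (0.04), Plekho1 (0.04), Dhcr7 (0.04), Gsn (0.05), Map2k7 (0.05), Rtp3 (0.05), Nxf1 (0.06), Rnps1 (0.06), Kdm4a (0.06) and Mtmr9 (0.07). Dhcr7, the last enzyme of cholesterol synthesis, was 33.7, 28.4, 39.5 and 23.4 FPKM in livers 1 to 4. The ranking rests on 4 livers, and the names are given as a description.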

How the data were processed

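Bulk RNA sequencing was performed on 4 livers after poly(A) enrichment, per the labels. The submitters' processing notes name FastQC 0.10.1, Trim Galore 0.6.3, cutadapt, STAR 2.7.6a, Cufflinks 2.2.1 and the build mm10. The deposited numbers were read as FPKM, since they are not whole numbers, carry Cufflinks-style identifiers, and the authors' header states no unit. Columns were matched to livers through sample descriptions, and 0 were left unmatched. Starts were shifted by 1 base, after which 52.0% of 22565 symbols had the RefSeq start, against 3.00% as deposited. Depth was estimated from the value of 1 fragment in genes with a single GENCODE vM21 transcript over 800 bases, less 200 bases, and fragments per gene from its longest coding transcript, so both are approximate.

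Analysis used Python 3.11.15, pandas 2.3.3 and numpy 2.4.6. Values were analysed as log2(FPKM + 1), and a mean of at least 1 FPKM counted as expressed. With 1 group, no test between groups was made, and Dixon's ratio was the only criterion with a critical value. The calculations were tested on simulated data. The genes named are the 10 genes, their paralogues, the genes of the regulator and the glucose and fructose lists, the 3 most abundant genes of each other list and the 10 nearest in pattern. Rows sharing a span with 1 of the 10 genes are also named. Genes named beyond these (Scd1, Mlycd, Ppara, Elovl3 and single markers) were chosen after their values were seen. A few genes of the lists are counted but not reported singly here. The genes and lists were chosen with earlier results of these data known. Alternatives were another scaling, pseudocounts of 0.1 and 5, other filters, means for medians, other totals, and leaving out each liver.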

Additional observations from a re-analysis of the deposited data

Results flagged for a closer look

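In a group of 4 livers, a value counts as far from the others when its gap to the nearest liver, divided by the range over all 4, exceeds the 95% critical value of Dixon's ratio. Chance passes about 1 in 20 genes, 5.64% of expressed genes passed here, and 5 did of 122 examined, namely the 10 genes, the expressed genes of all lists and the 10 nearest in pattern. Thrsp passed with a ratio of 0.907, liver 3 being high at 2012 FPKM. Srebf2 passed with 0.857, liver 3 being high at 13.03 FPKM against 10.7 to 11.0 FPKM in the others. Nr1h2 passed with 0.938, liver 3 being high at 25.7 FPKM against 20.9 to 21.2 FPKM in the others. Elovl3 passed with 0.905, liver 2 being low at 4.63 FPKM against 8.19 to 8.57 FPKM in the others. Apoa1 passed with 0.884, liver 4 being high at 15343 FPKM against 11922 to 12320 FPKM in the others.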

How the results depend on the processing

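Scaling by median ratios, pseudocounts of 0.1 and 5, and the mean in place of the median kept the sign of each median deviation. The scaling kept the count with a 1.5-fold range and the counts highest or lowest in each liver. Filters at 0.1 and 5 FPKM or none kept the same 10 genes, whose lowest mean was 21.3 FPKM (Acaca). They could therefore not change any of these values. The counts with a 2-fold range, with both the highest value in liver 3 and the lowest in liver 4, with liver 3 above liver 4 and past Dixon's value were not recomputed. Without the 100 genes of highest mean, which removed Thrsp, the summed share was 0.298%, 0.244%, 0.333% and 0.198% in livers 1 to 4, with a mean of 0.268% against 0.427%. The median deviation reversed in liver 1 without liver 4 and in liver 2 without liver 3, and over the livers left out it ran from -0.019 to 0.183 in liver 1 and from -0.188 to 0.036 in liver 2. It ran from 0.201 to 0.336 in liver 3, the lowest being without liver 4, and from -0.314 to -0.253 in liver 4. When a liver was left out, the count with a 1.5-fold range was between 2 and 7. The count highest in liver 1 was between 2 and 7, in liver 2 between 0 and 1, and in liver 4 between 0 and 2. The count lowest in liver 1 was between 1 and 2 and in liver 2 between 1 and 7. At the estimated depth, counting error was small beside the range of each of the 10 genes. No paired analysis was possible because the series has a single group.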
